A study of Mus musculus with 18 samples.

Results

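The genes described here are 8 genes of cholesterol synthesis, *Hmgcs1*, *Idi1*, *Fdps*, *Sqle*, *Lss*, *Cyp51*, *Dhcr7* and *Insig1*, chosen by their symbols among the 36757 genes counted in mouse colon tissue and organoids. Their choice used no measured value, but it was made with other results of these libraries known. The study compared 3 models, each with 3 *RNF138*fl/fl libraries (wild type in the labels) and 3 libraries labelled *RNF138*-/-, which gave 18 libraries. RNF138 is a ubiquitin ligase, and the mice were on the C57BL/6 background and 6 to 8 weeks old at the start, males and females, with both genotypes housed together. In the colitis model, mice of both genotypes drank 2% dextran sulfate sodium (DSS) for 7 days and then water for 14 days, in repeated cycles, and were killed 4 weeks after the last DSS. In the colitis-associated cancer (CAC) model, both genotypes also received 1 injection of the carcinogen azoxymethane (AOM) at 10 mg/kg, 4 days before the DSS cycles began. The organoids were grown in matrigel, with epidermal growth factor in the medium, from digested tumor-bearing pieces of CAC colon of each genotype. The mice labelled wild type carried the floxed allele, and the promoter or Cre behind the deletion was not given in the sources used here. Nothing in the labels says that the 3 libraries of a group came from separate animals or cultures, so the p-values measure the spread between these libraries, which may be technical.

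Cells build cholesterol from acetyl-CoA by way of mevalonate, isoprenoid units, squalene and lanosterol. The genes of this route are known to be switched on together by SREBP2, a transcription factor held in the endoplasmic reticulum while sterols are plentiful, and INSIG1 is one of the proteins that hold it there. In the intestine, where epithelial cells are renewed continuously, cholesterol also arrives by uptake from the diet and from lipoproteins. Of the 8 genes, *Hmgcs1* (HMG-CoA synthase) acts before mevalonate, *Idi1* and *Fdps* make and join the isoprenoid units, *Sqle* oxidises squalene, *Lss* closes it into lanosterol, and *Cyp51* and *Dhcr7* act between lanosterol and cholesterol. *Insig1* is not an enzyme, and its product is part of the sterol switch itself.

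The promoters of 4 of these genes are shown, 3 whose genotype difference changed between CAC and organoids and *Cyp51*, whose difference did not pass that test. No level or difference was related to these sequences. RefSeq (GRCm38.p6) gave promoter windows for 6 of the 8 genes, and for *Sqle* and *Fdps* none was used. Each stretch below runs 5′ to 3′ on the gene's strand within the 250 bases before the start of transcription, with annotated exon left out. Capitals mark matches on either strand to TCACNCCAC (a sterol regulatory element), to its shorter form TCACNNCA, to CCAAT (bound by NF-Y) or to GGGCGG (bound by Sp1).
*Hmgcs1* promoter, chr13:119690101-119690350, plus strand: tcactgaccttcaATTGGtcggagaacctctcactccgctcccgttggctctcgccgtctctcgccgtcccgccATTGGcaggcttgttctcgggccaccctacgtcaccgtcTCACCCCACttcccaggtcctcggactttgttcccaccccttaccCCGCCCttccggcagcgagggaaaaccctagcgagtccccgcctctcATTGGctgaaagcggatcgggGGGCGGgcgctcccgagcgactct
*Lss* promoter, chr10:76531355-76531587, plus strand: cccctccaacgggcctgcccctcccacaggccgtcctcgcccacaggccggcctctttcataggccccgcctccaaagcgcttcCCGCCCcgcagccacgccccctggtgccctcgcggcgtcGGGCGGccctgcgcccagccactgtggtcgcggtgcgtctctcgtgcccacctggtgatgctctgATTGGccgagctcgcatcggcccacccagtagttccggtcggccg
*Insig1* promoter, chr5:28071162-28071362, plus strand: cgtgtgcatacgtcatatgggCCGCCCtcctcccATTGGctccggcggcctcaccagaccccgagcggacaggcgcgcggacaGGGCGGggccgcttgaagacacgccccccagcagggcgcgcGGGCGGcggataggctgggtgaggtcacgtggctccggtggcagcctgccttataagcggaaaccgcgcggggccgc
*Cyp51* promoter, chr5:4104747-4104947, minus strand: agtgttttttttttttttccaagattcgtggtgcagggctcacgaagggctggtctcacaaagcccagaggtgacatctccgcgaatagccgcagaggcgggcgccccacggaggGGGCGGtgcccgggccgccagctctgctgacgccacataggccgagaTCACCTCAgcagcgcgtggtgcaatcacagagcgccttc
The *Hmgcs1* window held TCACNCCAC at positions -137 to -129 from the start, a match that overlaps the shorter form, and the *Cyp51* window held the shorter form at -88 to -81. The longer form occurred in 1 of the 8 windows of these genes (*Dhcr7* has 3) and in 1.05% of all 32851 windows of that length, and the shorter form in 4 of 8 and in 11.4%. CCAAT occurred in 6 of the 8 windows against 33.8% of all windows, and GGGCGG in 7 of 8 against 32.7%. Neither form of the sterol element stood in the windows printed for *Lss* and *Insig1*, which says only that these letters are not there.

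Libraries held 11514716 to 24390082 counts. In each library *Hmgcs1* had 1257 to 4736 counts, *Sqle* 847 to 2608, *Idi1* 165 to 872, *Lss* 321 to 1072, *Cyp51* 1391 to 5136, *Dhcr7* 460 to 1876 and *Insig1* 1012 to 6532. *Fdps* had only 16 to 224, and 26.2% of the 50-base windows of its transcripts also occur in other genes, with *Gm43738* overlapping 26.7% of its exon on the same strand, so its values are uncertain. *Idi1* shared 25.3% of its windows, mostly with *Gm13502*, and *Hmgcs1* shared 11.6%, mostly with *Gm48342*. The other 5 genes shared at most 2.77%. *Rnf138* itself did not pass as lower in any model. It had 19.6 ± 4.95 CPM (the count scaled to library size, SD, n = 3) in the wild-type colitis libraries and 18.8 ± 0.76 CPM in the others. In CAC it had 25.5 ± 3.43 and 43.6 ± 3.41 CPM, which passed as higher (edgeR adjusted p = 0.0426), and in organoids 48.9 ± 9.79 and 46.9 ± 3.81 CPM, so every direction below is that of libraries labelled *RNF138*-/-. Counts of 4 Y-linked genes summed to 0 in the 3 organoid *RNF138*fl/fl libraries and to 3239 to 5315 in those labelled *RNF138*-/-. In organoids sex and genotype therefore cannot be told apart, while all colitis and CAC libraries held Y-linked counts, from 1911 to 4983.

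Of the epithelial markers, *Epcam* lay between 826.9 and 2179 CPM over the 18 libraries, but others were low in some groups. *Cdx2*, an intestinal transcription factor, had 156 to 206 CPM in colitis *RNF138*fl/fl libraries and 191.7 to 240.5 CPM in colitis libraries labelled *RNF138*-/-. In CAC it had 42.46 to 240.4 CPM in *RNF138*fl/fl libraries and 3.40 to 14.1 CPM in those labelled *RNF138*-/-. It had 6.46 to 14.6 CPM in *RNF138*fl/fl organoids and 2.96 to 5.12 CPM in those labelled *RNF138*-/-. *Krt18*, a keratin, was at 461 to 522 CPM in colitis *RNF138*fl/fl libraries and at 1534 to 1833 CPM in organoids of that genotype. *Lgals4*, a gut lectin, lay between 3555 and 4304 CPM in colitis *RNF138*fl/fl libraries and between 366 and 639 CPM in organoids of that genotype. Per kb of exon, *Hmgcs1*, *Cyp51* and *Insig1* had the highest mean levels of the 8 in every group and *Fdps* the lowest. In colitis *RNF138*fl/fl libraries the level ran from 32.2 ± 7.60 CPM per kb (SD, n = 3) for *Insig1* through 25.3 ± 4.63 for *Hmgcs1* and 25.1 ± 3.84 for *Cyp51* to 0.729 ± 0.457 for *Fdps*. These first 3 genes did not differ beyond their spread. *Hmgcs1* led in CAC, with 49.4 ± 2.48 CPM per kb in *RNF138*fl/fl libraries and 35.7 ± 1.33 in those labelled *RNF138*-/-. *Insig1* led in organoids labelled *RNF138*-/- with 112 ± 5.90 CPM per kb, followed by *Cyp51* with 65.7 ± 3.74. In organoid *RNF138*fl/fl libraries *Cyp51* (71.8 ± 5.08) and *Insig1* (68.9 ± 2.00) lay within their spread of each other.

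**Figure D1:**
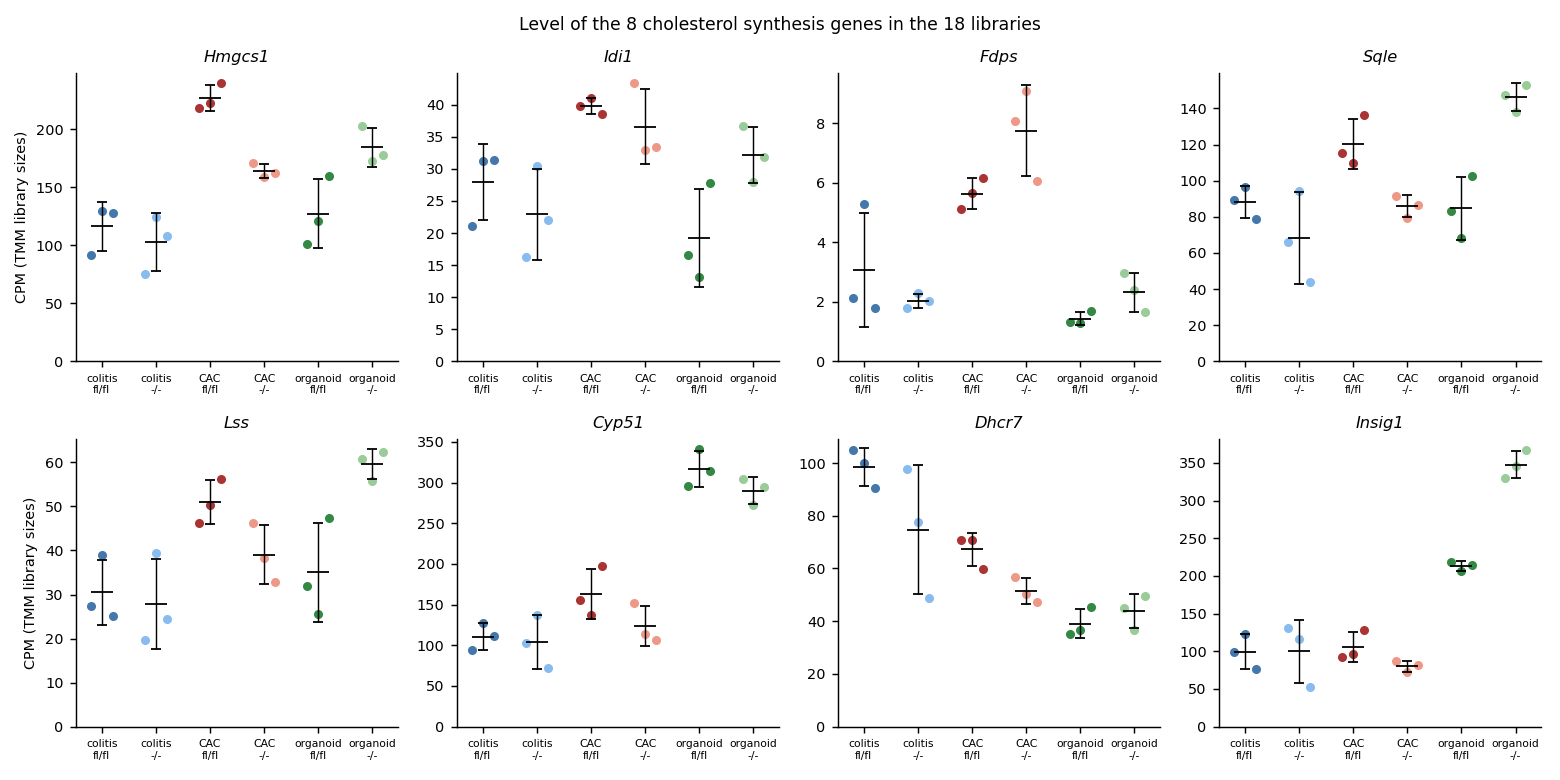
Level of each gene in CPM (y axis, linear, from 0) in the 6 groups (x axis), with 1 point per library and the mean ± SD (n = 3) in black, where fl/fl and -/- are the labelled *RNF138* genotypes. *Insig1* in organoids labelled *RNF138*-/- lies between 330.4 and 366.7 CPM, above all other libraries, and the mean of *Dhcr7* is highest in colitis *RNF138*fl/fl libraries (98.5 CPM).

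In colitis none of the 8 genes passed the test between the genotypes. *Hmgcs1* had 91.8, 129 and 128 CPM in the *RNF138*fl/fl libraries and 75.2, 125 and 108 CPM in those labelled *RNF138*-/-. *Sqle* had 89.3, 96.3 and 79.0 CPM against 66.1, 94.4 and 43.7 CPM, and *Insig1* had 99.4, 123 and 76.0 CPM against 131, 116 and 52.2 CPM. The groups overlapped for these genes and for the other 5. By edgeR's quasi-likelihood test with Benjamini-Hochberg adjustment 0 of 8 passed an adjusted p of 0.05, 0 had an unadjusted p under 0.05 and DESeq2 called 0, where edgeR called 0.0902% of the 16623 genes tested and 10.4% had an unadjusted p under 0.05. All 8 log2 fold changes were negative, as were 47.6% over all genes, with a median of -0.23 against 0.02. They ran from -0.60 for *Fdps* (95% interval -1.63 to 0.44) to -0.0007 for *Insig1* (-0.79 to 0.78). Replicate 3 labelled *RNF138*-/- had the lowest *Sqle*, *Cyp51*, *Dhcr7* and *Insig1* of all colitis libraries (71.8 CPM for *Cyp51* and 48.9 CPM for *Dhcr7*). Its fat cell markers summed to 342 CPM, against 154 and 216 CPM in its group and 235 to 269 CPM in *RNF138*fl/fl libraries. Its smooth muscle markers summed to 6040 CPM, the lowest of the colitis libraries. Without this replicate the log2 fold change of *Cyp51* was 0.11 and that of *Insig1* 0.31. No marker gene passed between the genotypes in colitis. An unadjusted p under 0.05 came for 5 of 8 T cell and 5 of 8 B and plasma cell genes, against 10.4% of all genes. It also came for 4 of 5 tested fat, 3 of 4 squamous and 3 of 6 skeletal muscle genes, and for at most 1 gene of each other list. The part of this replicate or of the markers was not tested. With the replicate number as a block, 0 of 8 passed as well, while over all genes the calls went from 3 higher and 12 lower to 38 and 53.

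In CAC 5 of the 8 genes were lower in every library labelled *RNF138*-/- than in every *RNF138*fl/fl library, but no difference passed after adjustment over all genes. *Hmgcs1* had 218, 223 and 240 CPM in the *RNF138*fl/fl libraries and 171, 159 and 162 CPM in those labelled *RNF138*-/-, a log2 fold change of -0.52 (95% interval -0.83 to -0.22, edgeR adjusted p = 0.0581). *Sqle* had 115, 110 and 136 CPM against 91.7, 79.4 and 86.6 CPM, a log2 fold change of -0.54 (-0.89 to -0.20, edgeR adjusted p = 0.0655). For both genes the groups did not overlap. *Insig1* had 91.9, 96.0 and 129 CPM against 86.9, 72.6 and 81.3 CPM, and *Lss* had 46.3, 50.4 and 56.3 CPM against 46.2, 38.3 and 32.7 CPM. For *Lss* the groups all but touched, and its log2 fold change was -0.44 (edgeR adjusted p = 0.133). *Dhcr7*, at 67.2 ± 6.29 CPM against 51.5 ± 4.91 (SD, n = 3), was the fifth gene without overlap, with a log2 fold change of -0.44 (edgeR adjusted p = 0.0826). Groups that do not overlap and are lower were found for 22.8% of the 17752 genes tested. *Fdps* alone was higher on average, with a log2 fold change of 0.41 (95% interval -0.16 to 0.97).

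In CAC 7 of the 8 log2 fold changes were negative, against 49.6% over all genes, with a median of -0.45 against 0.01. By edgeR 0 of 8 passed, against 6.38% of all genes tested, 5 of 8 had an unadjusted p under 0.05 against 33.8%, and DESeq2 called 2 lower, *Hmgcs1* (adjusted p = 0.00306) and *Sqle* (adjusted p = 0.0237), where it called 8.19% of the 32427 genes it fitted lower. Scaling by total counts instead of TMM moved the median of all genes to 0.27 and that of the 8 genes to -0.16, which leaves them -0.43 relative to all genes, and turned *Idi1* to 0.09. Cell type markers moved with the genotype in the same libraries. The summed level of 8 smooth muscle genes was 2853 to 9519 CPM in *RNF138*fl/fl libraries and 153 to 313 CPM in those labelled *RNF138*-/-, all 8 genes passing as lower. That of 8 B and plasma cell genes was 1516 to 2273 against 125 to 215 CPM, again with all 8 lower, and 5 of 6 fat genes tested were lower, *Adipoq* having 0 CPM in all 3 libraries labelled *RNF138*-/-. Of 12 epithelial genes 2 passed as lower, with a summed level of 11370 to 22820 against 8241 to 10340 CPM. Other lists lay the opposite way without a gene passing. The 10 proliferation genes summed to 468 to 484 CPM in *RNF138*fl/fl libraries against 633 to 902 CPM, and the 8 myeloid genes to 323 to 685 against 673 to 1105 CPM, each gene with a positive log2 fold change. The part of these markers in the values of the 8 genes was not tested, and in bulk RNA fewer cells of a type and less RNA per cell cannot be told apart.

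In organoids *Sqle*, *Lss* and *Insig1* rose in the libraries labelled *RNF138*-/-. *Sqle* had 83.1, 68.2 and 103 CPM in the *RNF138*fl/fl libraries and 148, 138 and 153 CPM in those labelled *RNF138*-/-, a log2 fold change of 0.75 (95% interval 0.41 to 1.09, edgeR adjusted p = 0.00747). *Lss* had 32.0, 25.6 and 47.4 CPM against 60.8, 55.9 and 62.5 CPM, a log2 fold change of 0.73 (0.26 to 1.20, edgeR adjusted p = 0.0261). *Insig1* had 218, 206 and 215 CPM against 330.4, 346 and 367 CPM, a log2 fold change of 0.67 (0.43 to 0.91, edgeR adjusted p = 0.00367). In these 3 genes the groups did not overlap, and the smallest gap, in *Lss*, was between 47.4 and 55.9 CPM. *Hmgcs1*, with 101, 121 and 159 CPM against 203, 172 and 178 CPM, did not overlap either (25.8% of all genes tested were higher without overlap), but its log2 fold change of 0.50 did not pass (0.11 to 0.89, edgeR adjusted p = 0.052). Replicate 3 of the *RNF138*fl/fl organoids was the highest of its group for *Hmgcs1*, *Sqle* and *Lss*, and without it 5 of the 8 genes passed. The calls over all genes without this library are not reported here. The call of *Lss* was lost without organoid *RNF138*fl/fl replicate 2 or without any 1 of the replicates labelled *RNF138*-/- (adjusted p from 0.0612 to 0.0823), and that of *Insig1* in a fit of all 18 libraries (adjusted p = 0.0705).

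*Idi1*, at 19.2 ± 7.65 CPM against 32.1 ± 4.38 (SD, n = 3), had a log2 fold change of 0.70 in organoids, and *Fdps* had 0.66, and neither passed (edgeR adjusted p = 0.0632 and 0.141). *Dhcr7* and *Cyp51* did not pass either. *Dhcr7* had 39.1 ± 5.65 CPM against 43.7 ± 6.44, a log2 fold change of 0.12 (95% interval -0.23 to 0.48), and *Cyp51* had 317 ± 22.4 CPM against 290 ± 16.5, a log2 fold change of -0.17 (-0.43 to 0.10). Over the 8 genes 3 were called higher and 0 lower, where 17.9% of the 15294 genes tested were called higher and 17.7% lower. Their median was 0.67 against -0.04 over all genes, and under scaling by total counts 0.46 against -0.24. Under that scaling *Dhcr7* was at -0.09 and *Lss* no longer passed (adjusted p = 0.0903). No fold change reached 2 in size, the largest fold being 1.68 for *Sqle*. In the same libraries 8 fibroblast genes summed to 9232 to 23590 CPM in *RNF138*fl/fl organoids and to 40720 to 50080 CPM in those labelled *RNF138*-/-, with 6 of 8 passing as higher. *Col1a1* lay between 3255 and 9440 CPM in the first group and between 13250 and 16050 CPM in the second. Smooth muscle genes passed as higher in 3 of 8 and epithelial genes as lower in 5 of 12, the epithelial sums being 10600 to 11810 against 6380 to 9409 CPM. Of 7 tested myeloid genes 3 passed as higher and 1 as lower, with sums of 50.6 to 70.7 against 138 to 192 CPM. Of 8 tested squamous genes 3 passed as lower, and of 10 proliferation genes 2 as higher. Whether these markers, or sex, bear on the 8 genes was not tested.

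**Figure D2:**
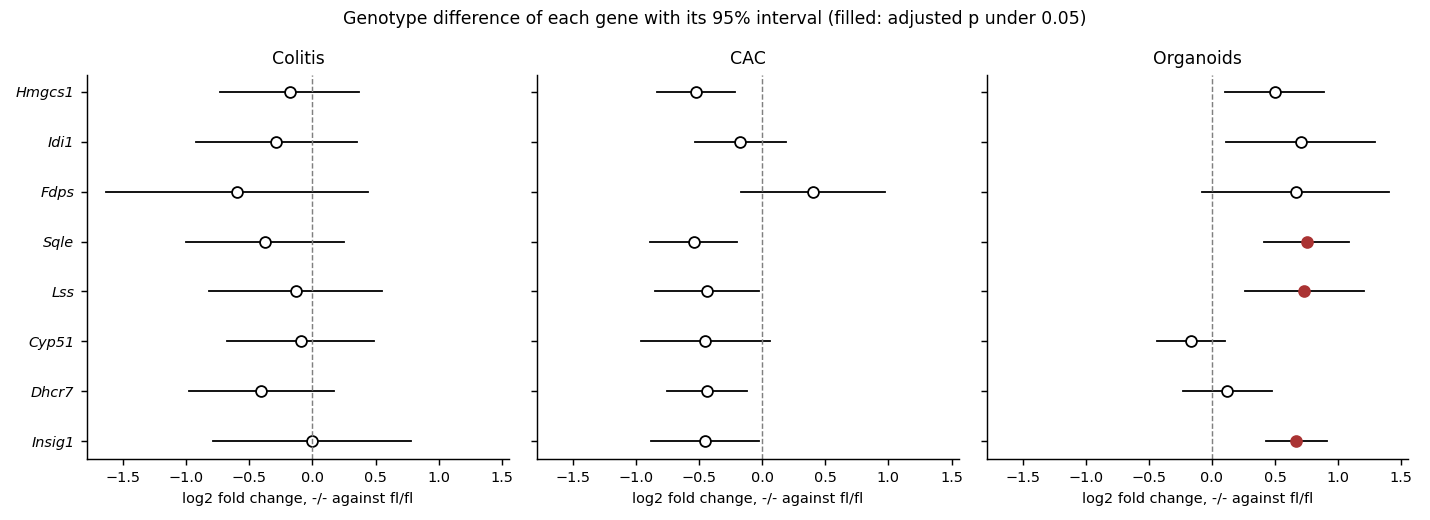
Log2 fold change of each gene of libraries labelled *RNF138*-/- against the *RNF138*fl/fl ones (x axis) in the 3 models, with the 95% interval from edgeR as a line and filled points where the adjusted p was under 0.05. Only *Sqle*, *Lss* and *Insig1* in organoids are filled, and in CAC 7 of 8 points lie left of 0.

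The genotype difference itself differed between organoids and CAC for 4 of the 8 genes, by interaction contrasts in 1 edgeR fit of the 18 libraries. It was larger in organoids by 1.01 on the log2 scale for *Hmgcs1* (edgeR, SE 0.28, adjusted p = 0.0167), by 1.28 for *Sqle* (SE 0.31, adjusted p = 0.00768), by 1.15 for *Lss* (SE 0.36, adjusted p = 0.0303) and by 1.10 for *Insig1* (SE 0.36, adjusted p = 0.0387). Contrasts called higher were 13.1% of the 19390 genes tested. In the same contrast 8 of 8 smooth muscle, 4 of 8 fibroblast and 4 of 12 epithelial genes passed as higher and 1 epithelial gene as lower. Their part, and that of sex, was not tested. All 8 values were positive, as were 48.4% over all genes, with a median of 0.94 against -0.04. *Cyp51* had 0.27 (95% interval -0.37 to 0.91) and *Fdps* 0.24 (-0.83 to 1.31), and under scaling by total counts these 2 turned to -0.21 and -0.23 while 1 gene, *Sqle*, still passed and the median of all genes was -0.49. *Sqle* passed under all 17 alternatives tried. *Hmgcs1* passed under all but scaling by total counts, *Lss* under 9 of 17 and *Insig1* under 6 of 17. *Lss* was lost without CAC *RNF138*fl/fl replicate 3, CAC replicate 2 or 3 labelled *RNF138*-/-, organoid *RNF138*fl/fl replicate 1 or 2, or organoid replicate 1 or 3 labelled *RNF138*-/- (adjusted p from 0.0563 to 0.0816). *Insig1* was lost without CAC *RNF138*fl/fl replicate 3, any 1 CAC replicate labelled *RNF138*-/- or any 1 organoid library (adjusted p from 0.0515 to 0.0909).

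Between organoids and colitis only *Sqle* passed, with a difference of 1.16 (edgeR, SE 0.31, adjusted p = 0.0333), where 4.52% of genes were called higher. It did not pass without colitis *RNF138*fl/fl replicate 1 or 2, colitis replicate 1 labelled *RNF138*-/-, organoid *RNF138*fl/fl replicate 2 or any 1 organoid replicate labelled *RNF138*-/- (adjusted p from 0.0601 to 0.0998), or under scaling by total counts (0.0583). In this contrast 3 of 8 fibroblast and 3 of 8 myeloid genes passed as higher and 2 of 10 tested squamous genes as lower. The part of these markers, and that of sex, was not tested. Between CAC and colitis 0 of 8 passed by edgeR or DESeq2 and 0 had an unadjusted p under 0.05, where edgeR called 14.1% of genes and 30.1% had an unadjusted p under 0.05. The values ran from -0.40 for *Insig1* (95% interval -1.17 to 0.37) to 1.06 for *Fdps* (-0.0003 to 2.11). The contrasts share libraries, so they are not independent of each other.

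**Figure D3:**
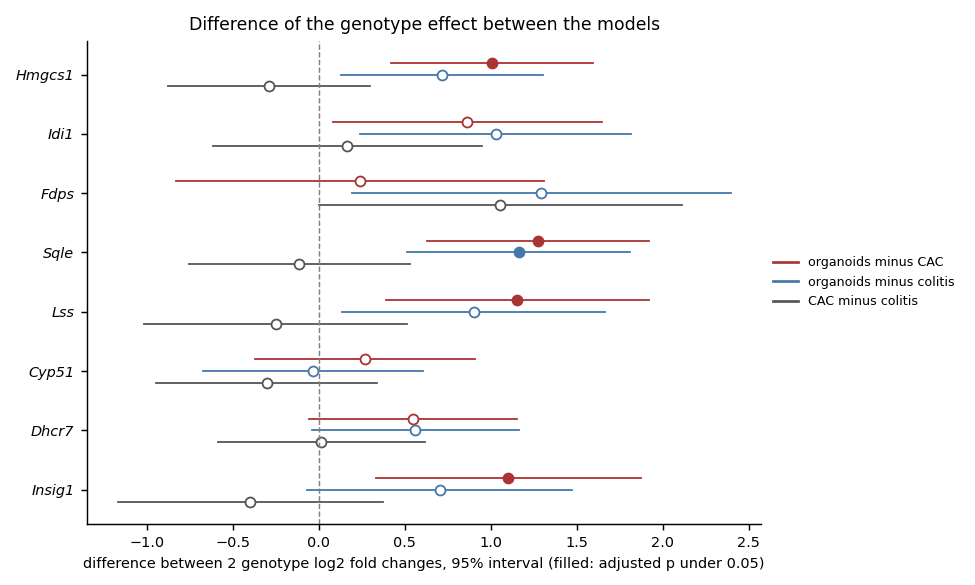
Difference between the genotype log2 fold changes of 2 models (x axis) for each gene, with 95% intervals from 1 edgeR fit of 18 libraries and filled points where the adjusted p was under 0.05. The 4 filled red points are *Hmgcs1*, *Sqle*, *Lss* and *Insig1* in organoids minus CAC, and 1 blue point, *Sqle*, is filled in organoids minus colitis.

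In CAC against colitis, *Hmgcs1* rose in both genotypes, from 116 ± 21.3 to 227 ± 11.4 CPM in *RNF138*fl/fl libraries (SD, n = 3, log2 fold change 0.96, edgeR adjusted p = 0.00303) and from 103 ± 25.1 to 164 ± 6.09 CPM in those labelled *RNF138*-/- (0.68, edgeR adjusted p = 0.00872). It was the only gene of the 8 to pass in *RNF138*fl/fl libraries, where 12.3% of 19390 genes were called higher and the median of the 8 was 0.54 against 0.04 over all genes. *Lss*, at 0.74, did not pass there (edgeR adjusted p = 0.0519), and without colitis *RNF138*fl/fl replicate 2 it passed (adjusted p = 0.0443), as did *Fdps* (0.00762). In libraries labelled *RNF138*-/-, *Idi1* (0.68, edgeR adjusted p = 0.0386) and *Fdps* (1.93, edgeR adjusted p = 0.000383) were also higher and *Dhcr7* was lower (-0.54, edgeR adjusted p = 0.0328), where 27.9% of genes were called higher and 26.7% lower. The call of *Idi1* was lost under 8 of 12 alternatives and that of *Dhcr7* under 6 of 12, among them the fit of these 6 libraries alone (adjusted p = 0.0783 and 0.0919). Of the libraries labelled *RNF138*-/-, leaving out colitis replicate 1 or 3 or any 1 CAC replicate lost *Idi1* (adjusted p from 0.0502 to 0.163), and leaving out colitis replicate 1 or CAC replicate 2 or 3 lost *Dhcr7* (0.0838 to 0.217). *Dhcr7* went the same way in *RNF138*fl/fl libraries without passing, from 98.5 ± 7.22 to 67.2 ± 6.29 CPM (log2 fold change -0.55, edgeR adjusted p = 0.0637). Its groups did not overlap in *RNF138*fl/fl libraries and overlapped in those labelled *RNF138*-/-. In these libraries scaling by total counts moved the median of all genes from 0.05 to 0.35, *Dhcr7* to -0.21 and *Insig1* from -0.31 to 0.02. The same libraries held 8 of 8 smooth muscle genes lower in CAC, at 6040 to 16330 CPM summed in colitis and 153 to 313 CPM in CAC. Lower there were also 8 of 8 B and plasma cell, 7 of 7 tested fat, 7 of 8 neuron and glia and 6 of 12 epithelial genes, and 5 of 8 myeloid and 3 of 10 proliferation genes were higher. In *RNF138*fl/fl libraries 5 of 10 tested squamous, 3 of 7 tested fat, 2 of 8 B and plasma cell, 2 of 8 myeloid and 1 of 7 tested skeletal muscle genes passed as higher in CAC. In the epithelial, endothelial, myeloid, neuron and glia, and proliferation lists 1 gene each passed as lower. The part of these markers was not tested.

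In organoids against CAC tissue some of the genes were higher and others lower. Among *RNF138*fl/fl libraries, those of CAC held 2415 to 4001 Y-linked counts and those of organoids 0. Culture and sex therefore cannot be told apart there. *Cyp51* and *Insig1* were higher in organoids of both genotypes. *Cyp51* rose by 0.96 on the log2 scale in *RNF138*fl/fl libraries, from 163 ± 30.9 to 317 ± 22.4 CPM (SD, n = 3, edgeR adjusted p = 0.00128), and by 1.23 in those labelled *RNF138*-/-, from 124 ± 24.4 to 290 ± 16.5 CPM (edgeR adjusted p = 0.00017). *Insig1* rose by 1.01, from 106 ± 20.2 to 213 ± 6.19 CPM (edgeR adjusted p = 0.00322), and by 2.12, from 80.3 ± 7.24 to 348 ± 18.2 CPM (edgeR adjusted p = 6.75e-06). *Fdps* was lower in organoids of both genotypes, by -1.97 and -1.73 (edgeR adjusted p = 0.000311 and 0.000672). These 6 calls passed under all 12 alternatives of scaling, filter, tool, block or libraries, and with a fold change of at least 2 required as well only *Cyp51* in *RNF138*fl/fl libraries was lost.

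The calls of the other genes were not shared by the genotypes. By Y-linked counts, sex differed between organoids and CAC only in *RNF138*fl/fl libraries, and its part was not tested. In *RNF138*fl/fl libraries *Hmgcs1* (-0.84), *Idi1* (-1.05) and *Dhcr7* (-0.78) were also lower in organoids, with adjusted p-values from edgeR of 0.0018, 0.00288 and 0.00346. In libraries labelled *RNF138*-/- none of these 3 passed, and *Sqle* (0.77, edgeR adjusted p = 0.00613) and *Lss* (0.61, edgeR adjusted p = 0.048) were higher. The difference between the genotypes was tested above, and passed for *Hmgcs1*, *Sqle* and *Lss* and not for *Idi1* (edgeR adjusted p = 0.102) or *Dhcr7* (edgeR adjusted p = 0.177). The call of *Lss* in libraries labelled *RNF138*-/- held under 5 of 12 alternatives. It was lost under scaling by total counts (adjusted p = 0.988), with the replicate block (0.0592) and on leaving out CAC replicate 2 or 3 or any 1 organoid replicate (0.0675 to 0.167). Counts of the 8 were 2 higher and 4 lower in *RNF138*fl/fl libraries, where 27% and 33.7% of genes were called, and 4 higher and 1 lower in those labelled *RNF138*-/-, where 25.7% and 34.2% were called. The medians were -0.66 and 0.39, against -0.14 and -0.22 over all genes. Scaling by total counts moved the second all-gene median to -0.84 and the median of the 8 to -0.23, so that *Lss* stood at -0.01 and *Hmgcs1* at -0.45, while *Cyp51* (0.61) and *Insig1* (1.49) stayed higher. Under that scaling *Sqle* no longer passed (0.15, adjusted p = 0.532), and *Idi1* (-0.80, adjusted p = 0.02) and *Dhcr7* (-0.85, adjusted p = 0.00206) passed as lower in these libraries too, so the counts of the 8 became 2 higher and 3 lower.

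Cell type markers differed between tissue and organoids. In *RNF138*fl/fl libraries 8 endothelial genes summed to 183 to 258 CPM in CAC and to 10.8 to 11.7 CPM in organoids, and B and plasma cell genes went from 1516 to 2273 CPM to 1.12 to 1.67 CPM. Fibroblast genes, of which 6 of 8 passed as higher and 1 as lower, went from 1165 to 1784 CPM to 9232 to 23590 CPM, and in libraries labelled *RNF138*-/- from 943 to 1766 CPM to 40720 to 50080 CPM. Smooth muscle genes passed as lower in 7 of 8 in *RNF138*fl/fl libraries, from 2853 to 9519 CPM to 351 to 1596 CPM. In those labelled *RNF138*-/- 5 of 8 passed as higher, from 153 to 313 CPM to 2008 to 2214 CPM. Epithelial genes passed as lower in 7 of 12 and as higher in 1 in *RNF138*fl/fl organoids, and *Vil1*, a brush border gene, fell to between 94.1 and 155 CPM from between 490.1 and 1137 CPM. The 10 proliferation genes summed to 468 to 484 CPM in CAC and to 121 to 228 CPM in organoids of this genotype. In libraries labelled *RNF138*-/- all 10 passed as lower, from 633 to 902 CPM to 200 to 239 CPM, as did 4 of 12 epithelial genes. The part of these markers in the levels of the 8 genes was not tested.

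**Figure D4:**
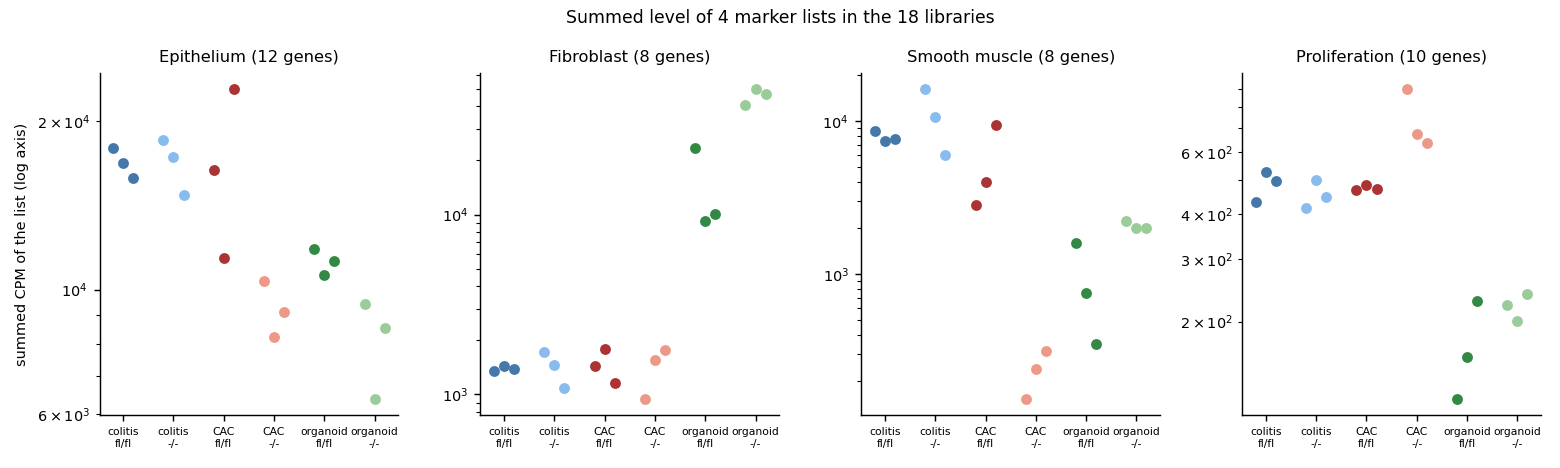
Summed CPM of 4 lists of marker genes (y axis, log scale) in the 6 groups (x axis), with 1 point per library. Smooth muscle genes are lowest in CAC libraries labelled *RNF138*-/- (153 to 313 CPM) and fibroblast genes highest in organoids labelled *RNF138*-/- (40720 to 50080 CPM).

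Other enzymes of the route, 14 genes, were followed alongside. In CAC 2 of the 14 passed between the genotypes, against 6.38% of all genes tested, both lower, *Msmo1* (a sterol monooxygenase, -0.87, edgeR adjusted p = 0.0467) and *Ebp* (a sterol isomerase, -0.65, edgeR adjusted p = 0.0487). In organoids, where 17.9% of all genes tested were called higher and 17.7% lower, 4 of the 14 were higher, *Lbr* (0.65) and *Hsd17b7* (0.57), which act on sterols, *Acat2* (0.55), which acts before *Hmgcs1*, and *Msmo1* (0.36), and *Tm7sf2*, another sterol reductase, was lower (-0.74). Their adjusted p-values by edgeR lay between 0.00611 and 0.0477. *Msmo1* was the only one of the 14 whose genotype difference passed between organoids and CAC (1.22, edgeR adjusted p = 0.00695), where 13.1% of all genes were called higher. Against colitis 5 of the 14 were higher in CAC in each genotype and none lower, where 12.3% of all genes were called higher in *RNF138*fl/fl libraries and 27.9% among those labelled *RNF138*-/-. Among them were *Fdft1*, which makes squalene (0.98 and 0.86), *Nsdhl* (0.93 and 1.15), *Hsd17b7* (0.75 and 0.84) and *Acat2* (0.56 and 0.68), with *RNF138*fl/fl libraries given first. In colitis 0 of 14 passed between the genotypes by edgeR, against 0.0902% of all genes, and 0 had an unadjusted p under 0.05, against 10.4%.

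Of the 6 genes of the sterol switch, *Srebf2*, which encodes SREBP2, had 286, 208 and 290 CPM in *RNF138*fl/fl organoids and 402, 392 and 418 CPM in those labelled *RNF138*-/-. The groups did not overlap and the log2 fold change was 0.59 (edgeR, SE 0.14, adjusted p = 0.0161). *Mbtps1*, a protease that releases SREBP, was also higher (0.46, edgeR adjusted p = 0.0391), which made 2 of 6 against 17.9% of all genes. In CAC *Srebf2* had 0.21 (edgeR adjusted p = 0.285) and in colitis -0.20 (edgeR adjusted p = 0.866), and its genotype difference did not pass between organoids and CAC (0.36, edgeR adjusted p = 0.422). *Srebf1*, the lipogenic relative, and *Insig2* did pass there, with -1.26 and 0.97 (edgeR adjusted p = 0.0368 and 0.0145), where 10.2% of all genes were called lower and 13.1% higher. The CAC level of *Srebf1* was 92.3 ± 25.4 CPM in the *RNF138*fl/fl group and 196 ± 27.1 CPM in libraries labelled *RNF138*-/- (SD, n = 3), which did not pass (edgeR adjusted p = 0.0508).

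Uptake and transport genes numbered 10. In organoids 3 of the 10 were higher and 3 lower in libraries labelled *RNF138*-/-, against 17.9% and 17.7% of all genes tested. *Stard4*, a carrier of sterol, had 57.0, 40.9 and 84.9 CPM in the *RNF138*fl/fl libraries and 133, 129 and 141 CPM in the others, without overlap, and rose by 1.10 on the log2 scale (edgeR adjusted p = 0.009). *Scarb1*, a lipoprotein receptor, rose by 0.82, from 43.6, 35.8 and 32.1 CPM to 64.3, 71.2 and 66.4 CPM (edgeR adjusted p = 0.00401). *Vldlr* fell by 0.59 and *Mylip*, a ubiquitin ligase, fell by 0.52, and *Npc1l1*, the sterol importer, which stayed under 5 CPM in every group, also passed as lower. In colitis and CAC 0 of 10 passed between the genotypes by edgeR (1 and 3 of 10 at an unadjusted p under 0.05, against 10.4% and 33.8% of all genes).

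**Figure D5:**
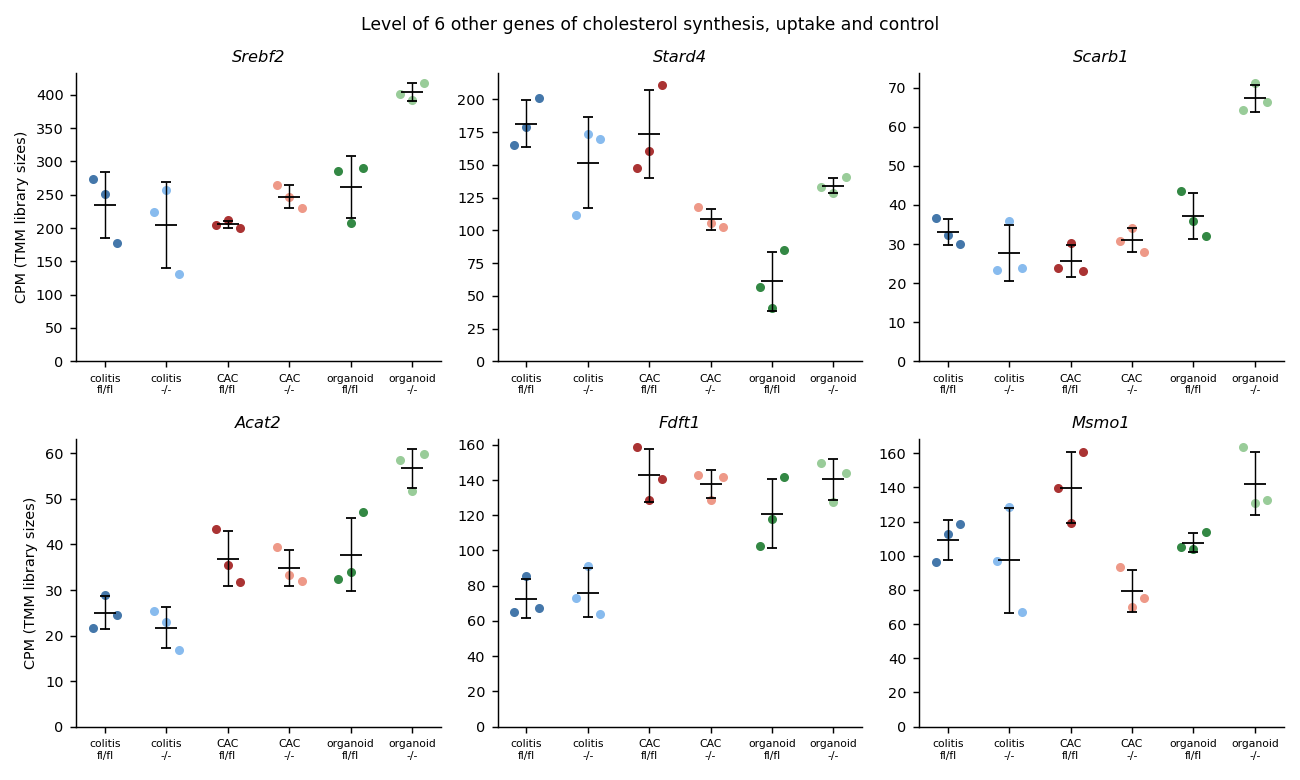
Level in CPM (y axis, linear, from 0) of 6 other genes of cholesterol synthesis, uptake and control in the 6 groups (x axis), with 1 point per library and the mean ± SD (n = 3). *Srebf2* is highest in organoids labelled *RNF138*-/- (392 to 418 CPM), and *Msmo1* is lowest in CAC libraries labelled *RNF138*-/-, apart from 1 colitis library at 66.8 CPM.

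Genes of efflux, storage and oxysterols, of the isoprenoid branch and of fatty acid synthesis were tested in the same fits. In organoids, against 17.9% of all genes called higher and 17.7% lower, 4 of 11 tested efflux and storage genes were higher, *Apoe*, a lipid carrier (1.13), *Abcg1*, a sterol exporter (0.74), *Ch25h*, which makes an oxysterol (0.73), and *Soat1*, which esterifies cholesterol (0.45), and *Cyp27a1*, a sterol hydroxylase, was lower (-1.20). Of 13 fatty acid genes 4 were higher, *Fads1* (1.07), *Scd1* (0.88), *Fasn* (0.69) and *Acaca* (0.66), and 1, *Thrsp*, was lower, and of 8 isoprenoid genes only *Nus1* passed (0.43). The adjusted p-values of these 9 higher genes by edgeR lay between 0.00254 and 0.0489. The part of cell type markers, or of sex, in these organoid values was not tested. In CAC *Acss2*, which makes cytosolic acetyl-CoA, was lower (-0.92, edgeR adjusted p = 0.0359) and no other gene of the 3 lists passed, against 6.38% of all genes. The genotype difference was larger in organoids than in CAC for 3 of 13 fatty acid genes, *Acss2* (1.34, edgeR adjusted p = 0.00144), *Elovl6* (1.59) and *Acacb* (1.47), and for *Nus1* of 8 isoprenoid genes (1.09). It was smaller for 2 of 12 efflux and storage genes, *Cyp27a1* (-2.14) and *Abcg8* (-3.70), and the shares over all genes were 13.1% and 10.2%.

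The 8 genes did not follow each other evenly. Over the 18 libraries the Pearson correlation of their log2 CPM ran from -0.65 (*Cyp51* and *Dhcr7*) to 0.89 (*Sqle* and *Lss*), with a median of 0.35 over 28 pairs. After group means were removed it ran from -0.16 (*Hmgcs1* and *Insig1*) to 0.86 (*Hmgcs1* and *Idi1*), with a median of 0.39. The points share libraries and group means, and no p is given. Among 12418 genes with a mean of at least 5 CPM, the 5 whose pattern over the 18 libraries was most like the mean of the 8 included *Acat2* (r = 0.77) and *Fdft1* (0.77), both enzymes of the route. On deviations from group means they were *Nsl1*, a kinetochore gene (0.91), *Rdh11*, a retinol dehydrogenase (0.89), *Aacs*, which makes acetoacetyl-CoA (0.87), *Ccnb2*, a cyclin (0.84), and *Fdft1* (0.84).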

How the data were processed

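RNA of mouse colon (colitis or CAC) and of organoids grown from CAC tumors was sequenced from TruSeq libraries in 18 samples, all used. The authors deposited whole-number read counts per gene, not normalized, and the submitters' processing notes name STAR 2.6.1d, HTSeq 0.11.2, DESeq2 and mm10, while the study's methods name Cufflinks and Gencode v.M8. Whether strand was used in counting was not given in the sources used here, so reads of a gene and of an overlapping gene on the other strand cannot be told apart. A second deposited table holds log2 fold changes and p-values of the authors' own comparisons and was not used. Identifiers were matched to GENCODE M21 of the same build (36700 genes, 99.84%).

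Genotypes were compared within each model by edgeR 4.0.16 in R 4.3.3 (TMM, filterByExpr, glmQLFit, glmQLFTest), and models and interactions in 1 fit of all 18 libraries. Benjamini-Hochberg adjustment covered all genes tested, and a gene passed at an adjusted p under 0.05. Printed CPM use TMM library sizes over the 18 libraries. Total counts were 11514716 to 24390082. Replicates differed beyond sampling noise (chi-square over degrees of freedom of at least 7.44), and none was counted as a duplicate. Same-numbered libraries counted as paired where r was over 0.1 in every pair. This held in colitis (r = 0.261, 0.114 and 0.531, 1 of 3 matching its own number best) and not in CAC (3 of 3 matching best) or organoids (0 of 3). The printed intervals and p-values in colitis still come from the fit without pairing, with the replicate block as an alternative.

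The 8 genes, the other lists and the tests were chosen with earlier results of these data known. Besides the 8 genes, *Srebf2* and *Rnf138*, up to 4 genes per pathway list were named in a comparison, those with the largest fold change among genes that passed and had a mean of 5 CPM or more in 1 of the groups, and the 5 genes most like the mean of the 8 by each measure, and some genes that this rule takes are not reported here. *Thrsp*, *Npc1l1*, the pathway genes other than the 8 named for a genotype difference between models (*Srebf1*, *Insig2*, *Acss2* and others), and the marker genes were chosen with their values in view. Alternatives were RLE and total-count scaling, no filter on low counts, DESeq2 1.42.0, leaving out each library, a replicate block, a fold change of at least 2, and other choices of libraries in the fit. The fits were tested on simulated data with larger changes than the genotype differences of the 8 genes and a smaller spread than in colitis and CAC. That test does not bear on calls of this size.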

Additional observations from a re-analysis of the deposited data

Results flagged for a closer look

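The genotype difference of 4 genes differed between organoids and CAC by an interaction contrast in the edgeR fit of 18 libraries. On the log2 scale it was larger in organoids by 1.01 for *Hmgcs1*, 1.28 for *Sqle*, 1.15 for *Lss* and 1.1 for *Insig1*. Contrasts called higher were 13.1% of all genes tested. *Sqle* passed under all 17 alternatives, *Hmgcs1* under 16, *Lss* under 9 and *Insig1* under 6, and under scaling by total counts only *Sqle* passed. For *Sqle* it was also larger in organoids than in colitis, by 1.16, where 4.52% of genes were called higher. This call held under 9 of 17 alternatives. The part of cell composition and, in organoids, of sex in these differences was not tested.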

How the results depend on the processing

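Over 80 log2 fold changes of the 8 genes and 1080 values under other settings, 953 kept their direction and their side of the threshold, 55 lost and 36 gained a call, and 36 changed direction. The cause was not tested where none is named.

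Counts of genes that passed moved as follows. DESeq2 called 2 between the genotypes in CAC against 0, 5 in organoids against 3, and 2 between CAC and colitis in *RNF138*fl/fl libraries against 1. Without a filter on low counts there were 5 in organoids and 2 between CAC and colitis in *RNF138*fl/fl libraries, where RLE also gave 2 and total counts 3. Over all genes DESeq2 called 3000 higher and 2429 lower of 28671 in organoids, and the fit without a filter called 3045 and 2688. Between CAC and colitis in *RNF138*fl/fl libraries they called 2758 and 1816, and 2384 and 1450, of 36757. RLE called 2382 and 1457 of 19390 there, and total counts 2395 and 1132. Total counts left 1 of 4 genotype differences between organoids and CAC and 0 of 1 between organoids and colitis. A fold change of at least 2 as well left 0 in organoids and, between CAC and colitis, 0 in *RNF138*fl/fl libraries and 1 of 4 in those labelled *RNF138*-/-. It left 3 of 6 and 3 of 5 between organoids and CAC. The 6 libraries of the groups alone gave 2 of 4 between CAC and colitis in libraries labelled *RNF138*-/-.

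With 1 library left out, 2 to 5 genes passed between the genotypes in organoids, and calls over all genes in such fits are not reported here. Between CAC and colitis 1 to 3 passed in *RNF138*fl/fl libraries and 2 to 6 in those labelled *RNF138*-/-. Genotype differences passed in 2 to 4 genes between organoids and CAC and in 0 to 2 between organoids and colitis. The replicate block gave 0 in colitis and CAC, 4 in organoids, and 4 and 1 for the genotype differences of organoids against CAC and colitis. Same-numbered libraries correlated by 0.0259, 0.224 and 0.0758 in CAC, each best with its own number, and by -0.214, -0.0914 and 0.0729 in organoids, none best with its own. The block gained *Idi1* between the genotypes in organoids (0.766, edgeR adjusted p = 0.047), lost *Lss* between organoids and CAC in libraries labelled *RNF138*-/- (0.607, edgeR adjusted p = 0.0592) and changed no other call of the 8 genes.

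Directions turned only in values that had not passed, except *Lss* between organoids and CAC. Scaling by total counts gave 0.087 for *Idi1* between the genotypes in CAC, -0.0854 for *Dhcr7* in organoids and 0.021 for *Insig1* between CAC and colitis in libraries labelled *RNF138*-/-. It gave -0.45 for *Hmgcs1* and -0.00558 for *Lss* between organoids and CAC in those libraries. For the genotype difference it gave 0.159 for *Sqle* and 0.000343 for *Lss* between CAC and colitis, and -0.228 for *Fdps* and -0.21 for *Cyp51* between organoids and CAC. *Dhcr7* turned to -0.0376 under RLE and -0.0363 under DESeq2 between CAC and colitis. A fit of all 18 libraries gave 0.0049 for *Insig1* between the genotypes in colitis.

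With 1 library left out, the genotype in colitis gave -0.348 to 0.00392 for *Hmgcs1*, -0.864 to 0.0337 for *Fdps*, -0.472 to 0.0663 for *Lss*, -0.354 to 0.106 for *Cyp51* and -0.239 to 0.306 for *Insig1*. Between CAC and colitis *Insig1* gave -0.0895 to 0.226 in *RNF138*fl/fl libraries and *Cyp51* -0.0109 to 0.428 in the others. The genotype difference between CAC and colitis gave -0.383 to 0.144 for *Sqle*, -0.0299 to 0.366 for *Idi1*, -0.495 to 0.0227 for *Lss* and -0.248 to 0.254 for *Dhcr7*, and that between organoids and colitis -0.251 to 0.185 for *Cyp51*. A fit with sex as a term was not run, since no group held both sexes. Counts of 16 to 224 limit what can be said of *Fdps*.

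Counts over all genes (higher and lower) also moved. Between the genotypes in CAC, 186 and 946 became 1351 and 2656 by DESeq2, 329 and 1542 without a filter and 1797 and 2763 in a fit of all 18 libraries. In colitis 3 and 12 became 218 and 177, 209 and 153, and 7 and 11 under these settings, and 7 and 22 under total counts. In organoids 2734 and 2702 became 1909 and 1349 in the fit of 18 libraries and 1916 and 4489 under total counts. Total counts also gave 7302 and 3814 against 5419 and 5184 for CAC against colitis, and 2841 and 10491 against 4978 and 6639 for organoids against CAC, in libraries labelled *RNF138*-/-. Genotype differences went under total counts from 817 and 1916 to 1193 and 1510 between CAC and colitis, from 2540 and 1987 to 1663 and 4459 between organoids and CAC, and from 877 and 501 to 433 and 797 between organoids and colitis, where DESeq2 gave 1409 and 954.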
